A study of Homo sapiens with 8 samples.

Results

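The miR-181 family is a set of microRNAs (miRNAs) made from 6 hairpins in 3 genomic clusters. The members described here are 6 mature names, hsa-miR-181a-5p, hsa-miR-181a-3p, hsa-miR-181a-2-3p, hsa-miR-181b-5p, hsa-miR-181c-5p and hsa-miR-181d-5p (written without the species prefix from here on), taken by name out of the 1818 mature miRNA names listed in at least 1 of 8 libraries. A name absent from a library was counted as 0, and all 6 members had reads in all 8 libraries. The same hairpins gave 4 further names, miR-181b-3p, miR-181b-2-3p, miR-181c-3p and miR-181d-3p, which are not members and are described only as the partner strands.

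Small RNAs were sequenced by AQ-seq, a library method designed to reduce ligation bias, from HCT116, a human colorectal carcinoma cell line. The 4 groups of 2 libraries were labelled as rescue with DICER carrying the amino acid substitution R1855L, R821H or R1003Q, or with wild-type (WT) DICER. The labels do not describe the cells' own DICER gene, the promoter of the rescue construct or whether a group is 1 clone. They also do not say that the 2 libraries of a group came from separate cultures, so a p-value here reflects library-to-library spread alone and that spread may be technical.

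DICER cuts the loop off a precursor hairpin and leaves a duplex of a 5p strand and a 3p strand. One strand is loaded into an Argonaute protein and directs it to messenger RNAs that pair with the seed, bases 2 to 8 of the miRNA, while the partner strand is mostly degraded. The family is best known from lymphocytes: in mouse, miR-181a promotes B-lineage development and raises the sensitivity of the T-cell antigen receptor by repressing phosphatases.

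The 4 5p strands are shown with the seed in capitals, because all 4 share it and only the bases after it tell them apart (RefSeq, GRCh38.p14, in which all 10 family names were found).
miR-181a-5p: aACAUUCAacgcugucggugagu
miR-181b-5p: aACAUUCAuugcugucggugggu
miR-181c-5p: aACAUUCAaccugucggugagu
miR-181d-5p: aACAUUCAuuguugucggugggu
With positions counted from 1 at the 5′ end and the base of the first-named strand written first, miR-181a-5p and miR-181b-5p differ by A9U, C10U and A21G. From miR-181b-5p to miR-181d-5p the only substitution is C12U. miR-181c-5p has the sequence of miR-181a-5p with base 11 deleted. How reads that fit more than 1 of these names were assigned is not given in the sources used here, so the split among the 4 names, and most of all between the abundant miR-181b-5p and the rare miR-181d-5p, is uncertain to that extent. The RefSeq table holds 1 other human miRNA with this seed, miR-4262, which had 0 reads in every library.

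The 3p strands of miR-181a are shown because they separate the 2 hairpins that give the same miR-181a-5p. miR-181a-3p comes from chromosome 1 and miR-181a-2-3p from chromosome 9.
miR-181a-3p: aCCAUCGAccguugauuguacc
miR-181a-2-3p: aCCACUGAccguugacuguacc
From miR-181a-3p to miR-181a-2-3p the substitutions are U5C, C6U and U16C, of which U5C and C6U lie in the seed.

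The precursors are shown with the mature strands in capitals, because DICER cuts at the inner ends of these strands. MIR181A1 and MIR181A2 give the most abundant member, and MIR181C and MIR181D the least abundant ones.
MIR181A1: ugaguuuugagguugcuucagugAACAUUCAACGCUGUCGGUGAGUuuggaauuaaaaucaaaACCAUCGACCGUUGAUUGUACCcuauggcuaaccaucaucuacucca
MIR181A2: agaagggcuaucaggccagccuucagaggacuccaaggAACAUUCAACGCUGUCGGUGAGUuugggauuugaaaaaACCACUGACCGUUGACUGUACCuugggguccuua
MIR181C: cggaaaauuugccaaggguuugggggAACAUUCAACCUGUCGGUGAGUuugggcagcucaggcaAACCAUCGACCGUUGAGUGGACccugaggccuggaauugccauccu
MIR181D: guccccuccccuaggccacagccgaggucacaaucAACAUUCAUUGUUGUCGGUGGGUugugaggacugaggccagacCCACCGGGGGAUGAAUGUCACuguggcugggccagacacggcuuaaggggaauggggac
The annotated strands are separated by 17 bases in MIR181A1, 15 in MIR181A2, 16 in MIR181C and 20 in MIR181D. In GRCh38, MIR181A1 lies on the minus strand of chromosome 1 at 198859044 to 198859153, and MIR181B1 lies 61 bases away at 198858873 to 198858982, both in an intron of the long non-coding RNA gene MIR181A1HG. MIR181A2 (124692442 to 124692551) and MIR181B2 (124693710 to 124693798) lie on the plus strand of chromosome 9, in an intron of the non-coding gene MIR181A2HG and, on the opposite strand, of the protein-coding gene NR6A1. MIR181C (13874699 to 13874808) and MIR181D (13874875 to 13875011) lie on the plus strand of chromosome 19 in an intron of NANOS3 (GENCODE 29).

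The libraries held 2241881 and 462805 reads for R1855L, 3340304 and 841857 for R821H, 1143373 and 675934 for R1003Q, and 1137858 and 4269231 for WT. R1855L replicate 1, R821H replicate 1 and WT replicate 2 lay above the widest gap in depth and are called deep here, and the other 5 libraries shallow. Both R1003Q libraries were shallow. With group in the model, edgeR called 36.5% of the 625 names tested as different between deep and shallow libraries, and none of the 6 members. The member nearest to a call was miR-181d-5p, with a deep minus shallow difference of 0.59 log2 units (SE 0.25, edgeR adjusted p = 0.0641). The epithelial markers, 5 miRNAs, were detected in all libraries at a summed level of 2669 to 3554 CPM, read counts scaled to library size. The 3 intestinal markers summed to 285 to 344 CPM. Of these 3, miR-215-5p had only 0 to 5 reads a library, with 0 in R1855L replicate 2 and R821H replicate 2. In R1855L against WT, where 5.76% of all names were called, 2 of the 5 epithelial markers were called lower. The log2 changes were -1.39 for miR-141-3p (edgeR adjusted p = 0.0422) and -1.04 for miR-429 (edgeR adjusted p = 0.0306). Not called were miR-200a-3p (-0.13), miR-200b-3p (0.18) and miR-200c-3p (0.25). The epithelial sums were 3126 and 2773 CPM in R1855L, and 2888 and 3554 in WT. The 8 blood-cell markers summed to 832 and 933 CPM in R1855L, 759 and 635 in R821H, 664 and 647 in R1003Q, and 791 and 705 in WT. Most of these reads came from miR-142 and the red-cell markers. A library held 208 to 1284 reads of miR-142-3p and 38 to 244 of its 5p strand, 17 to 80 of miR-144-3p, 34 to 259 of miR-486-5p and between 78 and 978 of miR-451a. miR-155-5p had 0 reads in 7 of 8 libraries, miR-150-5p 2 to 10 reads a library and miR-223-3p 2 to 9. The part of the epithelial and blood-cell markers in the family's differences was not tested.

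No member passed the test in any comparison with WT. miR-181a-5p, miR-181a-3p, miR-181a-2-3p and miR-181b-5p were higher in both R1855L libraries than in both WT libraries, and miR-181d-5p was lower in both. In R1855L 21% of all names were higher and 21.4% lower in that way. miR-181a-5p, miR-181a-3p and miR-181b-5p were higher in both R821H libraries than in both WT libraries, where 15.4% of all names were. For miR-181a-3p in R821H the margin was narrow, 763 CPM in replicate 2 against 758 CPM in WT replicate 2. In R1003Q, miR-181a-2-3p was higher than in both WT libraries, where 23% of all names were. The other 5 members lay within the span of the WT libraries. When the depth class was added to the model, miR-181a-5p, miR-181a-3p and miR-181d-5p were called in R1855L, where 28.2% of all names were called. In R821H miR-181a-5p was called, where 2.56% of all names were. These member calls depended on single libraries.

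miR-181a-5p, the most abundant member, is the 5p strand of both miR-181a hairpins. It measured 5039 and 3971 CPM in R1855L, 4180.2 and 4765 CPM in R821H, 3229 and 3298 CPM in R1003Q, and 1939.8 and 3402 CPM in WT (CPM normalised by TMM, which corrects library totals for composition). Both R1855L and both R821H libraries were above both WT libraries, and the R1003Q libraries lay between the 2 WT libraries, which were the most unequal pair. The means were 4505 ± 755 CPM in R1855L, 4473 ± 414 in R821H, 3264 ± 48.9 in R1003Q and 2671 ± 1034 in WT (SD, n = 2 each). By group mean it ranked 38 among all names in R1855L, 44 in R821H, 52 in R1003Q and 58 in WT.

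The log2 change of miR-181a-5p was 0.75 in R1855L (SE 0.32, edgeR adjusted p = 0.269), 0.74 in R821H (SE 0.32, edgeR adjusted p = 0.994) and 0.29 in R1003Q (SE 0.32, edgeR adjusted p = 0.903). With depth class in the model it was 0.78 in R1855L (SE 0.19, edgeR adjusted p = 0.00281) and 0.80 in R821H (SE 0.19, edgeR adjusted p = 0.0203), both past the threshold. Without WT replicate 1 those depth-adjusted changes were 0.46 (edgeR adjusted p = 0.228) in R1855L and 0.44 (edgeR adjusted p = 0.826) in R821H. Without R1855L replicate 1 the R1855L change was 0.64 (edgeR adjusted p = 0.0509), and without R821H replicate 2 the R821H change was 0.39 (edgeR adjusted p = 0.527). In R1003Q the depth-adjusted change was called only without R821H replicate 1 (0.57, edgeR adjusted p = 0.0304) or R821H replicate 2 (0.57, edgeR adjusted p = 0.0246), which enter the fit through the shared spread and the depth term. Over all 8 libraries that R1003Q change was 0.48 (SE 0.21, edgeR adjusted p = 0.325). Within the depth classes, the log2 ratio to WT was 0.57 for the deep and 1.03 for the shallow R1855L library, and 0.30 for the deep and 1.30 for the shallow R821H library. Both R1003Q libraries, which are shallow, stood above the shallow WT library, by 0.74 and 0.77 log2 units.

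miR-181b-5p, the 5p strand of both miR-181b hairpins, was the second most abundant member. It measured 2264 and 1839.9 CPM in R1855L, 2030.1 and 2149 CPM in R821H, 1724 and 1777 CPM in R1003Q, and 1413 and 1820.2 CPM in WT. The R1855L and R821H libraries were all above both WT libraries, by a narrow margin for R1855L replicate 2, and the R1003Q libraries lay between the WT libraries. The log2 change was 0.34 in R1855L (SE 0.24, edgeR adjusted p = 0.514), and it was 0.086 without R1855L replicate 1 and 0.18 without WT replicate 1. In R821H it was 0.37, and 0.19 without WT replicate 1. No comparison of miR-181b-5p with WT was called with or without depth class.

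**Figure D1:**
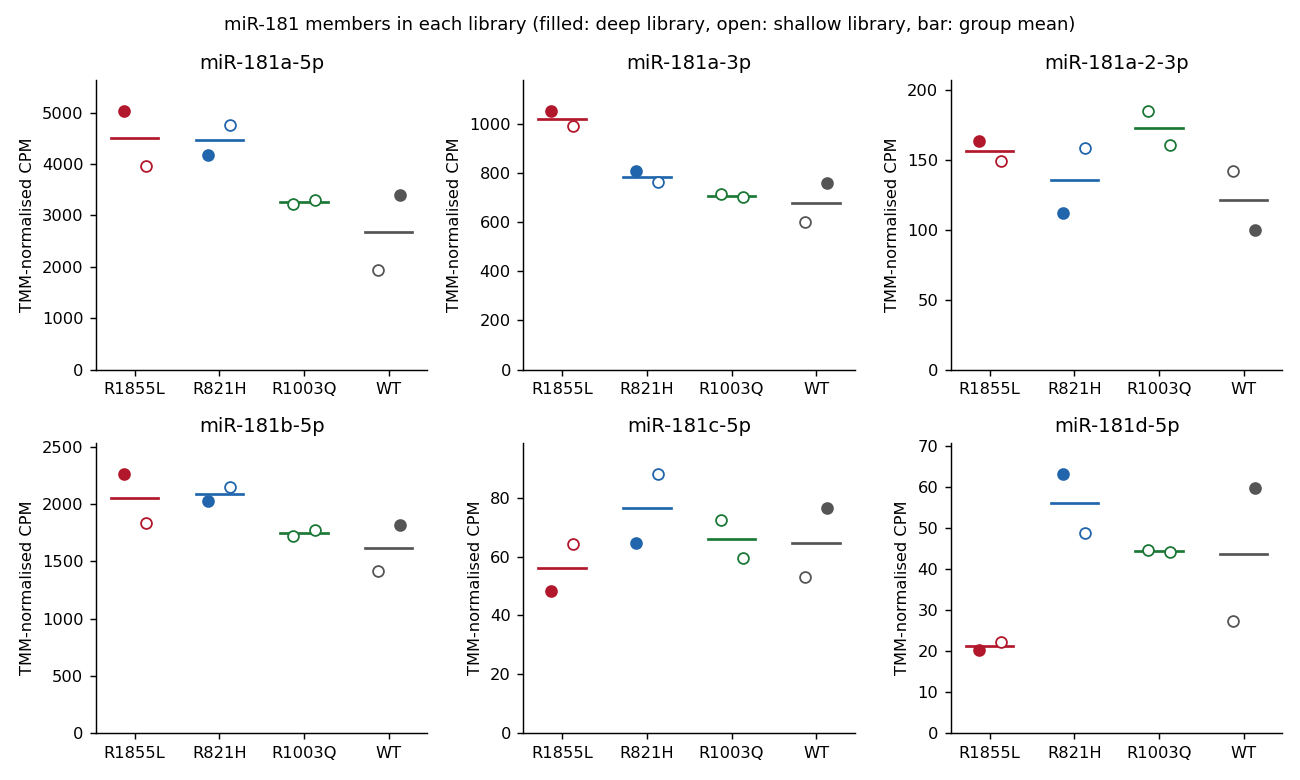
TMM-normalised CPM (vertical axis) of each member in the 8 libraries, by group, with filled points for deep libraries, open points for shallow ones and a bar at the group mean. Both R1855L libraries lie above both WT libraries for miR-181a-5p and miR-181a-3p, and below both for miR-181d-5p.

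miR-181a-3p is the 3p strand of the chromosome 1 hairpin MIR181A1. It measured 1053 and 989.9 CPM in R1855L, 806 and 763 CPM in R821H, 713 and 702 CPM in R1003Q, and 602 and 758 CPM in WT. Both R1855L libraries were above the other 6 libraries, R821H was above WT by a narrow margin, and R1003Q lay between the WT libraries. The log2 change in R1855L was 0.59 (SE 0.22, edgeR adjusted p = 0.213), and 0.59 with depth class in the model (SE 0.18, edgeR adjusted p = 0.0118). That depth-adjusted call was lost without WT replicate 1 (0.49, edgeR adjusted p = 0.237), without WT replicate 2 (0.58, edgeR adjusted p = 0.174) and without R1855L replicate 1 (0.53, edgeR adjusted p = 0.0710).

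miR-181a-2-3p is the 3p strand of the chromosome 9 hairpin MIR181A2. It measured 164 and 149 CPM in R1855L, 112 and 158 CPM in R821H, 185 and 161 CPM in R1003Q, and 142 and 99.9 CPM in WT. R1855L and R1003Q were above both WT libraries, and R821H overlapped WT. With group alone the log2 change was 0.38 in R1855L (SE 0.29, edgeR adjusted p = 0.555) and 0.52 in R1003Q (SE 0.29, edgeR adjusted p = 0.857). With depth class the changes were 0.44 and 0.39. Without WT replicate 2 the values with group alone were 0.055 in R1855L and 0.18 in R1003Q. With depth class, the R1855L change was -0.050 without R1855L replicate 1 and 0.72 without R1855L replicate 2. The R1855L to WT log2 ratio within the depth classes was 0.71 for the deep pair and 0.069 for the shallow pair.

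miR-181c-5p, from the chromosome 19 cluster, measured 48.2 and 64.4 CPM in R1855L, 64.8 and 88.1 CPM in R821H, 72.4 and 59.7 CPM in R1003Q, and 53.2 and 76.5 CPM in WT. All 3 mutant groups overlapped WT. It rested on 35 to 294 reads per library.

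miR-181d-5p, its neighbour in that cluster, was the least abundant member. It measured 20.2 and 22.1 CPM in R1855L, 63.1 and 48.8 CPM in R821H, 44.7 and 44.1 CPM in R1003Q, and 27.3 and 59.8 CPM in WT. Both R1855L libraries were below the other 6 libraries, and the R821H and R1003Q libraries overlapped WT. These levels rested on 41 and 12 reads in R1855L, 185 and 41 in R821H, 50 and 31 in R1003Q, and 36 and 230 in WT.

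The log2 change of miR-181d-5p in R1855L was -1.08 (SE 0.42, edgeR adjusted p = 0.238), and -1.18 with depth class in the model (edgeR adjusted p = 0.00526). Within the depth classes the R1855L to WT log2 ratio was -1.55 for the deep pair and -0.30 for the shallow pair. The depth-adjusted change was -0.67 without R1855L replicate 1 (edgeR adjusted p = 0.400) and -0.68 without WT replicate 2 (edgeR adjusted p = 0.375).

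Across the 6 members, edgeR called 0 in R1855L against WT, where it called 5.76% of all 625 names, and 0 in R821H and 0 in R1003Q, where it called 0% of all names. At an unadjusted p under 0.05 there were 3 members in R1855L (18.4% of all names), 1 in R821H (3.2%) and 0 in R1003Q (4.96%), and DESeq2 called 0 members in each (8.32%, 0.16% and 0% of all names). With depth class in the model, edgeR called 3 members in R1855L, where it called 28.2% of all names, 1 in R821H (2.56%) and 0 in R1003Q (0.32%). The R1855L libraries did not overlap WT for 4 members that were higher and 1 that was lower, where 21% of all names were higher and 21.4% lower in that way. The corresponding members were 3 higher and 0 lower in R821H (15.4% and 13.1% of all names), and 1 higher and 0 lower in R1003Q (23% and 17.8%). The median log2 change of the members was 0.36 in R1855L, 0.28 in R821H and 0.09 in R1003Q, beside 0.13, 0.04 and 0.06 over all names tested. The 3 comparisons share the WT libraries.

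**Figure D2:**
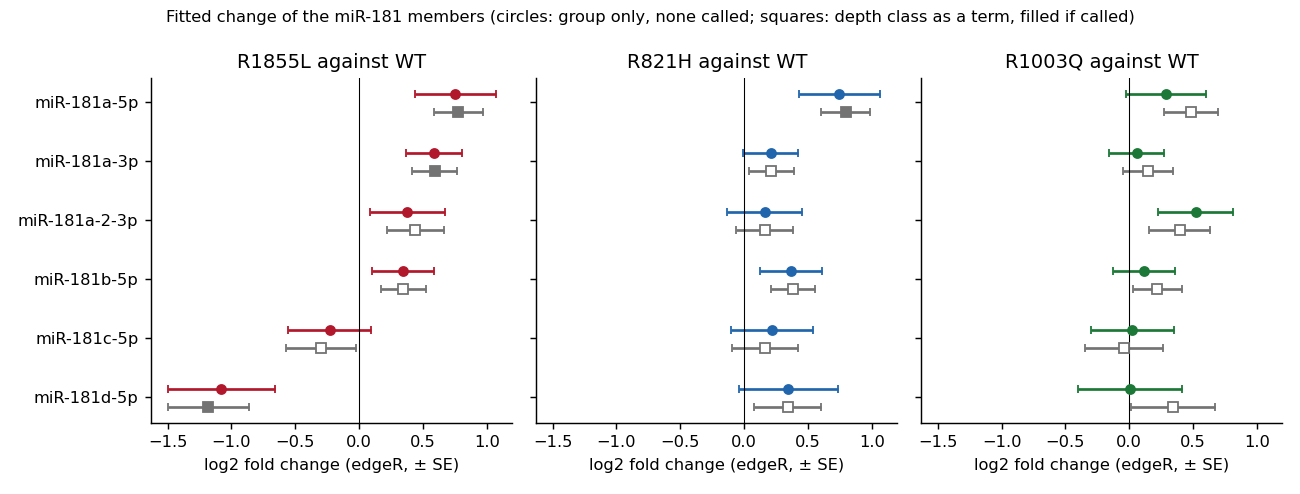
Log2 change against WT (horizontal axis, edgeR, bars for the SE) of each member in R1855L, R821H and R1003Q, with circles for the model with group alone and squares for the model with depth class, filled squares being called. None of the circles passed the test, and the one farthest from 0 is miR-181d-5p in R1855L, at -1.08.

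With group alone in the model, edgeR called 0 members in R821H against R1855L (3.84% of all names), 0 in R1003Q against R1855L (3.68%) and 0 in R1003Q against R821H (0%). At an unadjusted p under 0.05 there were 1, 2 and 0 members in these comparisons (14.9%, 14.7% and 1.6% of all names), and DESeq2 called 0 members in each (6.24%, 6.24% and 0%). The member with the largest difference was miR-181d-5p. It was 1.43 log2 units higher in R821H than in R1855L (SE 0.42, edgeR adjusted p = 0.144) and 1.08 higher in R1003Q than in R1855L (SE 0.43, edgeR adjusted p = 0.303). With depth class in the model both differences were 1.52 and both were called, with edgeR adjusted p = 0.000822 for R821H, where 18.2% of all names were called, and edgeR adjusted p = 0.00515 for R1003Q, where 14.7% were. Without R1855L replicate 1, they were 0.97 (edgeR adjusted p = 0.181) for R821H and 1.06 (edgeR adjusted p = 0.122) for R1003Q.

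The chromosome 19 members made up the smallest part of the family's 5p reads, and least in R1855L. miR-181c-5p and miR-181d-5p together made up 0.927% (95% exact binomial interval 0.780 to 1.09) and 1.47% (1.08 to 1.95) of the family's 5p reads in R1855L. They made up 2.02% and 1.94% in R821H, 2.31% and 2.00% in R1003Q, and 2.35% (1.92 to 2.83) and 2.54% (2.33 to 2.77) in WT. Both R1855L shares were below those of the other 6 libraries. These intervals cover counting error only, and with 2 libraries a group the smallest exact two-sided permutation p is 0.333. For miR-181c-5p alone the R1855L shares, 0.654% and 1.09%, did not stand apart, as R821H replicate 1 had 1.02%. For miR-181d-5p alone they were 0.274% and 0.374%, below the other 6 libraries. All these shares also depend on miR-181a-5p, which made up most of the family's 5p reads.

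miR-181a-5p alone made up 68.4% and 67.3% of those reads in R1855L, 66.0% and 67.6% in R821H, 63.7% and 63.7% in R1003Q, and 56.5% and 63.5% in WT. The WT libraries were the 2 lowest and lay furthest apart. Per 100 reads of miR-181b-5p there were 0.891 and 1.20 reads of miR-181d-5p in R1855L, 3.11 and 2.27 in R821H, 2.59 and 2.48 in R1003Q, and 1.94 and 3.29 in WT. Both R1855L values were below the other 6.

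**Figure D3:**
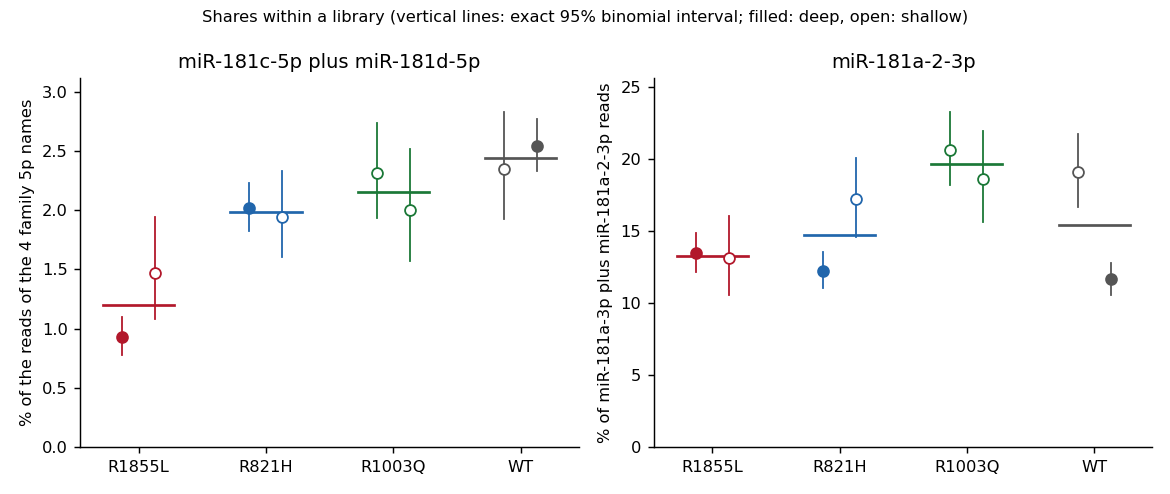
Percent of the family's 5p reads from miR-181c-5p plus miR-181d-5p (left) and of miR-181a 3p reads from miR-181a-2-3p (right) in each library, with filled points for deep and open points for shallow libraries, vertical lines for the exact 95% binomial interval and a bar at the group mean. The share of miR-181c-5p and miR-181d-5p is 0.927% and 1.47% in R1855L, against 2.35% and 2.54% in WT.

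The 3p strands give the only view of the 2 miR-181a loci. The chromosome 9 strand made up 13.5% and 13.1% of miR-181a 3p reads in R1855L, 12.2% and 17.2% in R821H, 20.6% and 18.6% in R1003Q, and 19.1% and 11.6% in WT. The R1855L and R821H libraries lay within the span of the 2 WT libraries, and one R1003Q library lay above it.

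The ratio of 5p to 3p reads describes which strand of a duplex was found more often. Because miR-181a-5p and miR-181b-5p pool 2 hairpins each, their ratios set both loci's 5p reads against the 3p reads of 1 locus. The log2 ratio of miR-181a-5p to miR-181a-3p was 2.26 and 2.00 in R1855L, 2.37 and 2.64 in R821H, 2.18 and 2.23 in R1003Q, and 1.69 and 2.17 in WT. R821H and R1003Q were above both WT libraries, R1003Q by a narrow margin, and R1855L overlapped WT. The change was 0.20 in R1855L (SE 0.37, limma adjusted p = 0.844), 0.58 in R821H (SE 0.37, limma adjusted p = 0.922) and 0.28 in R1003Q (limma adjusted p = 0.892).

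Limma called none of the 4 family strand pairs in any comparison with WT, with or without depth class. With group alone in the model, none had an unadjusted p under 0.05. Over the 188 pairs tested limma called 7.45% in R1855L, 0% in R821H and 0% in R1003Q, and with depth class 21.3%, 0% and 0.532%. The ratio of miR-181b-5p to miR-181b-3p was 5.64 and 6.57 in R1855L, 5.71 and 6.09 in R821H, 5.44 and 5.51 in R1003Q, and 5.29 and 5.93 in WT, all groups overlapping WT. The ratio of miR-181c-5p to miR-181c-3p was 3.92 and 2.69 in R1855L, 3.15 and 2.97 in R821H, 3.26 and 3.60 in R1003Q, and 3.68 and 3.59 in WT. Both R821H libraries were below both WT libraries for this pair (change -0.57, SE 0.57, limma adjusted p = 0.986), and R1855L and R1003Q overlapped WT. miR-181c-3p had only 3 to 24 reads a library. miR-181d-3p had between 0 and 10 reads a library and miR-181b-2-3p between 1 and 10, too few to be tested.

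**Figure D4:**
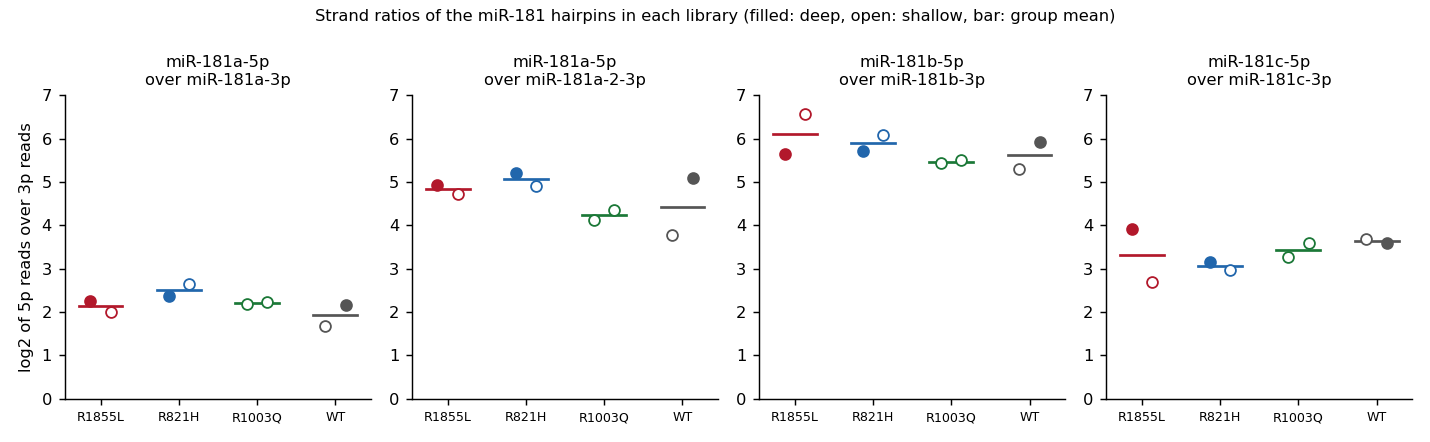
Log2 ratio of 5p to 3p reads (vertical axis) for the family's strand pairs in each library, by group, with filled points for deep libraries, open points for shallow ones and a bar at the group mean. For miR-181a-5p over miR-181a-3p the R821H libraries, at 2.37 and 2.64, lie above the WT libraries, at 1.69 and 2.17.

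Of 14 miRNAs known beside miR-181 in blood-lineage work, 11 were tested. In R1855L, where 5.76% of all names were called, 0 were called higher and 1 lower, miR-222-3p, which fell by 2.16 on the log2 scale (SE 0.26, edgeR adjusted p = 0.00512). With depth class in the model 2 were called higher and 2 lower in R1855L, where 28.2% of all names were called. In R821H and in R1003Q edgeR called 0 of the list with and without depth class. The median change of the list was -0.09 in R1855L, 0.03 in R821H and 0.02 in R1003Q, beside 0.13, 0.04 and 0.06 over all names tested.

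Among 334 names outside the family with a mean of at least 50 CPM, the profiles most like that of miR-181a-5p over the 8 libraries were those of miR-625-3p, miR-148a-5p and miR-30d-5p. Their root-mean-square differences from it, on the log2 scale after centring, were 0.162, 0.180 and 0.180, where the median candidate had 0.524. Within the family the difference was 0.214 for miR-181b-5p, 0.258 for miR-181a-3p, 0.428 for miR-181c-5p, 0.475 for miR-181a-2-3p and 0.705 for miR-181d-5p. Members were not held to the minimum of 50 CPM. Their differences include counting error, which is larger for names with few reads, such as miR-181d-5p with 12 to 230 reads a library.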

How the data were processed

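The deposited tables list, per library, mature miRNA names with the authors' estimated counts, some of them fractional, from 1 read upward. The submitters' processing notes name cutadapt, BWA, bedtools, hg38 and mm10 without versions or roles; the assignment of shared reads is not given in the sources used here. Counts were rounded to whole reads, and names with low counts were left out with filterByExpr, which kept 625 of 1818. edgeR 4.0.16 (R 4.3.3) fitted 1 quasi-likelihood model with group alone to all 8 libraries after TMM normalisation, with Benjamini-Hochberg adjustment over the 625 names and calls at an adjusted p under 0.05. SE is the log2 change over the root of its F statistic. Strand ratios were tested with limma 3.58.1 on log2 of reads plus 0.5, for 188 pairs with at least 80 reads a strand. DESeq2 1.42.0, a depth-class term, a replicate block, other scalings and filters and each library left out were alternatives. The scripts were tested on simulated data. A count of 0 allows 3 reads, from 0.703 to 6.48 CPM by library. Named were all members, the partner strands, same-seed names, called names of the blood-lineage list and the 3 profiles most like miR-181a-5p. Members and lists were chosen with earlier results of these data known.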

Additional observations from a re-analysis of the deposited data

How the results depend on the processing

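With group alone in the edgeR model, 0 members were called in each of the 6 comparisons under DESeq2, other scalings, other filters, a fit to the 4 libraries compared, and with any library left out. With depth class in the model, edgeR called 28.2% of all names in R1855L against WT and 2.56% in R821H against WT. It called 18.2% in R821H against R1855L and 14.7% in R1003Q against R1855L. Member calls in these comparisons, in the same order, were 3, 1, 1 and 1. With a library also left out, which was added after seeing the data, these numbers were 0 to 4, 0 to 1, 0 to 1 and 0 to 1, and 0 to 1 in R1003Q against WT. The cause was not tested. Whether replicate numbers pair the libraries could not be decided. Differences between replicates correlated at 0.53 between R1855L and R821H, but at -0.66 between R1855L and WT and -0.67 between R821H and WT. The deep library is replicate 1 in R1855L and R821H and replicate 2 in WT, and the signs of these correlations followed it. A pairing beyond depth was not tested. For R1003Q, with both libraries shallow, the correlations were 0.03 with R1855L, -0.11 with R821H and 0.08 with WT. With the replicate block 0 members were called, and all-name calls in R1855L against WT were 19, against 36 without it, 52 with DESeq2, 176 with depth class and 2 in the fit to 4 libraries. All-name calls there ranged from 15 to 27 with a library left out and were 14 with total-count scaling. Leaving out a library turned the direction of several small changes. In R821H against WT the changes ranged from -0.166 to 0.420 for miR-181a-2-3p, -0.0307 to 0.426 for miR-181c-5p and -0.0901 to 0.966 for miR-181d-5p. In R1003Q against WT they ranged from -0.0616 to 0.647 for miR-181a-5p, -0.102 to 0.130 for miR-181a-3p and -0.0580 to 0.205 for miR-181b-5p. Without a filter R1003Q gave -0.0994 for miR-181a-3p and -0.0420 for miR-181b-5p. Strand ratios in R1855L ranged from -0.0353 to 0.442 for miR-181a-5p over miR-181a-3p, -0.254 to 1.07 over miR-181a-2-3p and -0.943 to 0.288 for miR-181c. In R821H they ranged from -0.0270 to 1.29 for miR-181a-5p over miR-181a-2-3p and -0.0325 to 0.609 for miR-181b. In R1003Q these ranged from -0.851 to 0.470 and from -0.461 to 0.181, and depth class gave 0.117 for miR-181a-5p over miR-181a-2-3p and 0.0170 for miR-181c. Shallow libraries limit miR-181d-5p most, with 12 reads in R1855L replicate 2.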
